A study of Rattus norvegicus with 12 samples.

Results

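This account compares the 6 libraries of rat H9c2 cells that were given methylmalonic acid (MMA) with the 6 that were not, adjusted for folic acid (FA), which 3 libraries on each side also received. The 4 groups of 3 were control cells, MMA alone, FA alone and MMA+FA, so the side with MMA held the groups MMA and MMA+FA and the side without it held the groups control and FA. A gene entered the account if its mean was at least 1 TPM over the 12 libraries and if all 6 libraries with MMA lay above, or all 6 lay below, the 6 without. TPM is the length-scaled share of a library that a gene takes. Of 12263 genes tested, 749 met that rule (6.11%), 53 of them higher with MMA and 696 lower. H9c2 is an established line from embryonic rat heart, and all groups were H9c2 cells. The labels state neither dose nor duration. Nothing in the labels says that the 3 libraries of a group came from separate cultures, so p-values measure only the spread between these libraries, which may be technical.

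MMA is a dicarboxylic acid of the propionate pathway. Propionyl-CoA from valine, isoleucine, methionine, threonine and odd-chain fatty acids is carboxylated to methylmalonyl-CoA, which the mitochondrial enzyme methylmalonyl-CoA mutase (Mmut) rearranges to succinyl-CoA with a cobalamin cofactor. When that enzyme or its cofactor fails, MMA accumulates, and it is measured in the clinic as a sign of cobalamin deficiency. Folate meets cobalamin at a different enzyme, methionine synthase (Mtr), which is why both vitamins are studied together. The title of the series concerns folate, methylmalonic acid and cardiovascular mortality, and the comparison made here asks which transcripts differed with MMA whether or not FA was present.

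The libraries differed as a whole in a few ways that touch the results. Mitochondrially encoded genes took 10.7% ± 0.490 of TPM with MMA and 9.55% ± 0.562 without (SD, n = 6 each), a difference of 1.145 percentage points (exact permutation test within FA backgrounds, two-sided p = 0.01, the smallest possible being 0.005). The 100 most abundant genes took 37.4% ± 0.649 with MMA and 36.0% ± 0.770 without (same exact test, p = 0.005). TPM sums to the same total in every library, so its values are relative. The median log2 difference over all tested genes was -0.07, and what sets it was not tested. With TPM recomputed without mitochondrially encoded genes the calls were 469 higher and 2167 lower, and 79 and 547 genes did not overlap. Read depth is unknown. The labels call the cells cardiomyocytes, yet 3 of 14 cardiomyocyte markers in the table had a mean of 1 TPM or more. Tnnt2, Nkx2-5 and Gata4 did, while Myh6, Myh7, Tnni3, Actc1, Nppa and Ryr2 did not. Skeletal myoblast markers were measured more widely, 8 of 14, and their summed level was 225.3 to 283.2 TPM with MMA and 282 to 334.7 TPM without. Of those 8, Myod1, Musk, Cdh15 and Myog were called lower with MMA and none was called higher, 50% against 23.2% lower of all genes tested in the limma comparison described below. After median-ratio scaling 2 of the 8, Myod1 and Musk, were called lower and 1, Des, higher. Fibroblast markers were the most widely measured, 11 of 14, and summed to 13300 to 15220 TPM with MMA and 13100 to 16830 TPM without. Of those 11, 1 was called higher and 2 lower (9.09% and 18.2% against 3.15% and 23.2% of all genes). After median-ratio scaling 2 were called higher and none lower (18.2% higher against 9.04% of all genes). Endothelial, leukocyte and epithelial markers at 1 TPM or more numbered 3 of 12, 2 of 13 and 1 of 8. Fewer cells of a type and less RNA per cell cannot be told apart in such bulk libraries, and the part of the myoblast markers in the results below was not tested.

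The comparison was lopsided in the values as deposited. With limma on log2(TPM + 1) and an FA term, 386 genes were called higher (3.15% of the genes tested) and 2840 lower (23.2%) at an adjusted p under 0.05. Groups of 6 that did not overlap were found for 53 genes with higher values (0.432%) and 696 with lower values (5.68%), and limma called 51 and 686 of these. When each library was instead divided by its median ratio to a common reference, which removes the general shift, the calls became 1109 higher (9.04%) and 907 lower (7.4%). The non-overlapping genes then numbered 242 higher (1.97%) and 274 lower (2.23%). All 53 genes of the higher set were among those 242, and 274 of the 696 lower genes remained. The size of the excess of lower over higher genes therefore depended on the scaling, and in the limma calls median-ratio scaling reversed it. For each gene given below with its own log2 difference, a call that median-ratio scaling ended is named.

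The differences were small. The median over the 53 higher genes was 0.22 on the log2(TPM + 1) scale and the median over the 696 lower genes was -0.23, and on that scale no gene in either set reached a fitted difference of 2-fold. The means of H4c14 in TPM, 6.94 with MMA and 14.7 without, differed by more than that. Differences of at least 0.3 were found in 19 of the higher genes and differences of -0.3 or less in 164 of the lower genes. Protein-coding genes made up 50 of the 53 and 677 of the 696.

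Edn1, the gene of the endothelin-1 precursor, a vasoconstrictor peptide that also acts as a growth signal on heart muscle cells, showed the largest rise. Its lowest, median and highest values were 12.2, 21.1 and 27.9 TPM without MMA and 28.8, 33.7 and 37.6 TPM with it. FA libraries were the high ones on the side without MMA, at 24.2, 26.5 and 27.9 TPM against 12.2, 17.9 and 17.4 TPM in control cells, and the gap to the lowest MMA library was narrow. On the log2 scale Edn1 was higher by 0.68 (SE 0.12, limma adjusted p = 0.00287). Without FA the difference was 0.99 (limma adjusted p = 0.00141). With FA it was 0.37 and was not called (limma adjusted p = 0.0842). The cytokine gene Tnfsf18, the ligand of the receptor GITR on T cells, ranged from 4.11 to 5.72 TPM without MMA (median 4.68) and from 5.82 to 9.91 TPM with MMA (median 7.9), a difference of 0.64 (SE 0.10, limma adjusted p = 0.00168). Both groups of 6 again came close to each other without touching.

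Several of the other genes with the largest rises had less in common. Pdxk, the kinase that turns vitamin B6 into its active phosphate, ranged from 4.71 to 5.31 TPM (median 5.04) in the 6 libraries without MMA and from 6.45 to 7.15 TPM (median 6.72) in the 6 with it. That was a rise of 0.36 (SE 0.05, limma adjusted p = 0.0008) with a wide gap for so low a level. Frmd4b, a scaffold protein of epithelial junctions, ranged from 5.95 to 8.46 TPM (median 7.26) and from 8.69 to 9.99 TPM (median 9.52), a rise of 0.36 (SE 0.07, limma adjusted p = 0.00449). Mylip, a ubiquitin ligase, rose by 0.33 (SE 0.06, limma adjusted p = 0.00281). Ggct, an enzyme of glutathione breakdown, was 0.36 higher (SE 0.10, limma adjusted p = 0.0241), but leaving out FA replicate 1, MMA+FA replicate 1 or MMA+FA replicate 3 ended its call. Without FA its difference was 0.15 and was not called (limma adjusted p = 0.407). With FA it was 0.56 (limma adjusted p = 0.0216). Il18rap, a subunit of the interleukin-18 receptor, rose by 0.25 (SE 0.06, limma adjusted p = 0.0105). Mylip and Il18rap were called without FA (limma adjusted p = 0.00554 and 0.0165) but not with FA (0.0666 and 0.174).

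**Figure D1:**
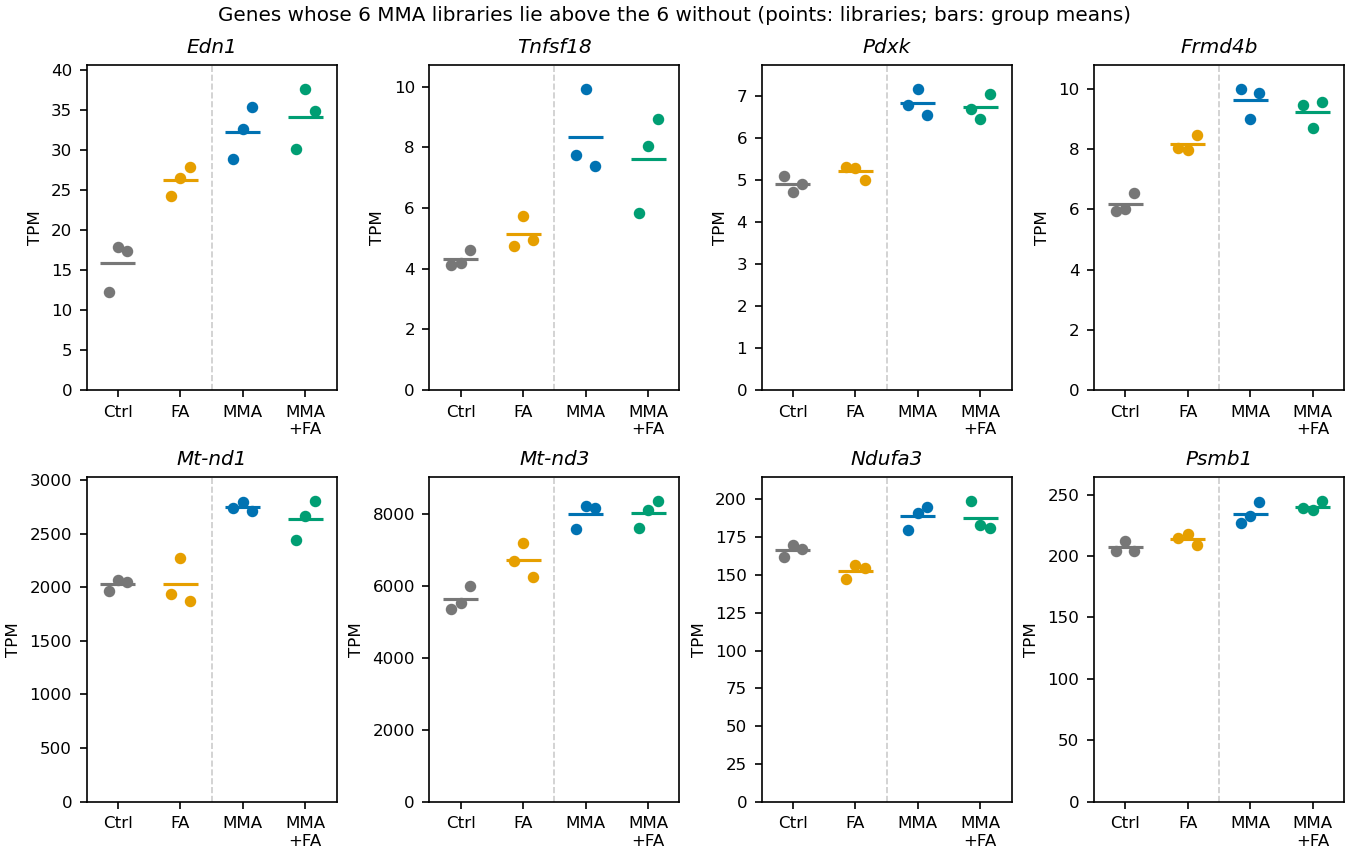
TPM in each of the 12 libraries for 8 genes whose libraries with MMA lay above all libraries without it. Points are libraries, horizontal bars are group means (n = 3), the dashed line separates libraries without and with MMA, and the axes start at 0. The FA libraries of Edn1 and Frmd4b lie between the control libraries and the libraries with MMA.

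Mitochondrial DNA encodes 13 proteins of the respiratory chain. Limma called 9 of the 13 higher and none lower (69.2% higher against 3.15% of all genes). The libraries of 5 did not overlap (38.5% against 0.432% of all genes). All 7 that encode subunits of complex I, the NADH dehydrogenase at the entry of the chain, were called, against 2 of the other 6 (Mt-cyb and Mt-co2). After median-ratio scaling 12 of the 13 were called higher (92.3% against 9.04% of all genes), 5 of the other 6 among them. Without FA replicate 2 it was 11 of 13 as deposited, so the contrast between complex I and the others depended on these choices. The 5 that did not overlap were Mt-nd1, Mt-nd2, Mt-nd3, Mt-nd4l and Mt-nd5, all of complex I. A mitochondrial ribosomal RNA was a further member of the 53 genes.

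Mt-nd1 ranged from 1873 to 2274 TPM (median 2008) without MMA and from 2443 to 2803 TPM (median 2725) with it, a rise of 0.41 (SE 0.05, limma adjusted p = 0.000522). Mt-nd3 ranged from 5373 to 7208 TPM (median 6124) without MMA and from 7592 to 8363 TPM (median 8133) with it, a rise of 0.38 (SE 0.05, limma adjusted p = 0.00101). FA replicate 2 was the highest library without MMA for both genes. Mt-nd4l, Mt-nd5 and Mt-nd2 each rose by 0.34 (limma adjusted p = 0.000769, 0.00214 and 0.000931). More of these transcripts and less of other RNA cannot be told apart in shares of a fixed total. Median-ratio scaling is relative too, and it gave 0.49 for Mt-nd1.

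Nuclear genes of the same machinery moved less. Of 45 nuclear subunits of oxidative phosphorylation, 7 were called higher and none lower (15.6% higher against 3.15% of all genes), and the count was 4 without control replicate 2 and 14 after median-ratio scaling (31.1% against 9.04%). Uqcrfs1, the Rieske protein of complex III, rose by 0.09 (SE 0.02, limma adjusted p = 0.0201), and Cox5a of complex IV rose by 0.17 (SE 0.05, limma adjusted p = 0.0267). Cox5a lost its call without control replicate 2, FA replicate 1 or MMA+FA replicate 3. Ndufa3, a nuclear-encoded complex I subunit that was not among those 45, ranged from 147 to 170 TPM (median 159) without MMA and from 180 to 199 TPM (median 187) with it, a rise of 0.24 (SE 0.04, limma adjusted p = 0.0014).

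Other abundant housekeeping complexes also leaned upward. Of 32 proteasome subunits 7 were called higher and none lower (21.9% higher against 3.15% of all genes), a count that was 4 without control replicate 3, MMA replicate 1 or MMA replicate 3. Psmb1, a subunit of the catalytic core, ranged from 204 to 218 TPM (median 211) and from 227 to 245 TPM (median 238), a rise of 0.17 (SE 0.03, limma adjusted p = 0.00139). Of 44 cytosolic ribosomal proteins 8 were called higher and 1, Rpl37, lower. The higher count was 4 or 5 without control replicate 1, control replicate 3, MMA replicate 1, MMA replicate 2 or MMA+FA replicate 3. Rpl18 rose by 0.09 (SE 0.02, limma adjusted p = 0.0113) and Rps6 by 0.11 (SE 0.03, limma adjusted p = 0.027), the latter, whose symbol several identifiers share, with a call that 5 of the 12 single-library omissions ended. After median-ratio scaling 21 proteasome and 25 ribosomal protein genes were called higher, against 9.04% of all genes on that scale. None of either list was then called lower, so the call of Rpl37 ended. Sod1, the cytosolic superoxide dismutase, ranged from 228 to 261 TPM (median 245) and from 262 to 292 TPM (median 269), a rise of 0.15 (SE 0.04, limma adjusted p = 0.011).

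Genes of cholesterol synthesis and uptake were called only upward, 8 of 24 with none lower (33.3% higher against 3.15% of all genes), and 14 of 24 after median-ratio scaling (58.3% against 9.04%), although a single member, Hmgcs1, kept its 6 and 6 libraries apart. Hmgcs1 makes the precursor that enters the mevalonate pathway, and it ranged from 28.0 to 30.9 TPM (median 29.4) without MMA and from 31.8 to 36.4 TPM (median 32.7) with it, a rise of 0.16 (SE 0.04, limma adjusted p = 0.0118). Insig1, a sterol-sensing protein of the endoplasmic reticulum, rose by 0.47 (SE 0.10, limma adjusted p = 0.00513). Its values were 13.1, 12.8 and 14.2 TPM in control cells, 14.5, 15.4 and 17.3 TPM with MMA, 14.4, 16.5 and 14.9 TPM with FA, and 22.8, 24.9 and 30.2 TPM with both. It overlapped between 6 and 6, with FA libraries above control libraries, while within either FA background the 3 and 3 libraries stayed apart.

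Genes that cells switch on quickly after a stimulus moved in both directions. Immediate early genes encode transcription factors such as Fos and Jun relatives, and brakes on the MAP kinase cascade, and serum response factor (Srf) drives many of them. Of 31 genes in that list 9 were called lower and 4 higher, 29.0% and 12.9% against 23.2% lower and 3.15% higher of all genes tested, so the share of lower calls was near that of all genes. After median-ratio scaling the balance turned, with 7 called higher and 4 lower (22.6% and 12.9% against 9.04% and 7.4%). As deposited, 4 lower members did not overlap. The 9 became 6 without any control replicate or without MMA+FA replicate 2. The 4 were Junb, Dusp5, Srf and Fosb.

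Junb, a subunit of the AP-1 transcription factor, ranged from 65.0 to 81.9 TPM (median 74.0) without MMA and from 47.5 to 57.2 TPM (median 49.8) with it. The sides were well separated, with a fall of 0.51 (SE 0.06, limma adjusted p = 0.000726), but the only identifier with this symbol is annotated as a pseudogene in the table, so the identity of these reads is uncertain. Dusp5, a nuclear phosphatase that inactivates the kinase ERK, ranged from 32.9 to 38.5 TPM (median 36.0) and from 16.4 to 31.5 TPM (median 26.2), a fall of 0.50 (SE 0.11, limma adjusted p = 0.00836). The low Dusp5 values were those of MMA alone, 24.7, 21.4 and 16.4 TPM, while MMA+FA gave 31.5, 30.6 and 27.8 TPM. The Dusp5 difference was -0.81 without FA (limma adjusted p = 0.00173). With FA it was -0.19 and was not called (limma adjusted p = 0.269). Srf itself ranged from 56.5 to 66.3 TPM (median 59.1) and from 48.1 to 56.3 TPM (median 52.2), a fall of 0.20 (SE 0.04, limma adjusted p = 0.0074) that was not called after median-ratio scaling (-0.12, limma adjusted p = 0.0699).

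Fosb fell by 0.94 (SE 0.30, limma adjusted p = 0.0331), from 95.9 to 131 TPM (median 109) without MMA to 17.4 to 93.5 TPM (median 70.7) with it. MMA alone gave 68.4, 42.1 and 17.4 TPM and MMA+FA 93.5, 72.9 and 92.0 TPM, so the spread within MMA alone was wide. The Fosb difference was -1.63 without FA (limma adjusted p = 0.00773). With FA it was -0.26 and was not called (limma adjusted p = 0.643). Over both backgrounds its call was lost after median-ratio scaling (limma adjusted p = 0.0601) and without any control replicate, MMA replicate 2 or MMA+FA replicate 2. Spry4, an inhibitor of receptor tyrosine kinase signalling, went the other way and rose by 0.18 (SE 0.05, limma adjusted p = 0.0143), and Klf6 and Atf3, transcription factors induced by injury and stress, rose by 0.17 (SE 0.04, limma adjusted p = 0.0087) and 0.25 (SE 0.05, limma adjusted p = 0.00702).

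Srf binds the CArG box, CC followed by 6 bases that are each A or T and then GG, which reads as the same pattern on both strands. Among 24 tested genes of the list with a promoter in the RefSeq table for GRCr8, 6 (25%) held the pattern in the 300-base window from 250 bases before to 50 bases after the start, against 1.64% of all 27457 promoters of the same length. Among the 9232 promoters of tested genes the share with the pattern was 1.33%. The 6 genes of the list were Dusp5, Srf, Egr1, Egr2, Zfp36 and Klf6. The 250 bases before the start are shown for 4 of them, picked after their values were seen, because these genes carry the pattern and differed in direction. Each is read 5′ to 3′ in the direction of transcription with CArG boxes in capitals, and the coordinates are those of GRCr8, a later build than the mRatBN7.2 of the expression values. The windows are chr1:262543524-262543773 on the plus strand for Dusp5, chr9:21923826-21924075 on the plus strand for Srf, chr1:92799109-92799358 on the minus strand for Zfp36 and chr17:69458479-69458728 on the minus strand for Klf6.
Dusp5: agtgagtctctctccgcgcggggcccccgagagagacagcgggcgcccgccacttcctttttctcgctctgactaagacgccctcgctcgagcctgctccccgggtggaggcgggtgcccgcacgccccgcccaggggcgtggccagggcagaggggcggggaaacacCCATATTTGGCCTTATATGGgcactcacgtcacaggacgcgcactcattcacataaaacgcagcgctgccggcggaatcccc
Srf: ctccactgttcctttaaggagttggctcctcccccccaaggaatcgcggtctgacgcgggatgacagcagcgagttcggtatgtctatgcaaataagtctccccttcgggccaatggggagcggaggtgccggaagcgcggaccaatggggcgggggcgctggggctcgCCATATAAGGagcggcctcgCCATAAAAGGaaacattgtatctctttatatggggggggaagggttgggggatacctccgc
Zfp36: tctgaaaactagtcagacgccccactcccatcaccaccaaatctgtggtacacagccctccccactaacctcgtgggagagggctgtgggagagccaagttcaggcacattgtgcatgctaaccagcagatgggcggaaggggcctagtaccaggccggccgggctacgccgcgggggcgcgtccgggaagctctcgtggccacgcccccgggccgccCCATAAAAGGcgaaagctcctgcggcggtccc
Klf6: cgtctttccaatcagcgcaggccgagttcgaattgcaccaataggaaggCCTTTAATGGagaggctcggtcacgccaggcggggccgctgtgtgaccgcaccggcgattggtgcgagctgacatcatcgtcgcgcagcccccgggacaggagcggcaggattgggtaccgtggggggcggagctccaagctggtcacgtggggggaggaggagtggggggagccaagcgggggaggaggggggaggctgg

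Dusp5 and Srf each hold 2 boxes, adjoining in Dusp5 at positions -82 and -72 and at -81 and -61 in Srf, counted from the start. Zfp36, which encodes an RNA-binding protein that destabilizes cytokine messages, holds 1 at -32, and Klf6 holds 1 at -201. Zfp36 was called lower by 0.44 (SE 0.11, limma adjusted p = 0.0132) with overlapping libraries, and Klf6 was called higher. Egr1, an immediate early zinc finger factor, differed by -0.30 (SE 0.11, limma adjusted p = 0.0609) and Egr2 by -0.15 (SE 0.10, limma adjusted p = 0.272). Over all tested genes with a promoter, 26 of 123 with a CArG box were called lower (21.1%) against 2209 of all 9232 (23.9%). Called higher were 6 (4.88%) against 276 (2.99%). Lower without overlap were 10 (8.13%) against 550 (5.96%). Zfp36 and the 2 Egr genes do not meet the non-overlap rule.

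Signalling genes among the fallers included 4 of the largest differences. Map3k14, the NF-kB-inducing kinase of the non-canonical pathway, ranged from 7.09 to 10.5 TPM (median 8.82) without MMA and from 5.45 to 6.51 TPM (median 5.89) with it, a fall of 0.50 (SE 0.08, limma adjusted p = 0.00147). Clcf1, a cytokine of the interleukin-6 family, ranged from 17.1 to 21.2 TPM (median 18.5) and from 11.6 to 15.3 TPM (median 12.5), a fall of 0.49 (SE 0.05, limma adjusted p = 0.000462). Neither gene overlapped, and the differences without and with FA were -0.49 and -0.50 for Map3k14 and -0.44 and -0.55 for Clcf1. Shc4, an adaptor of receptor tyrosine kinases, fell by 0.52 (SE 0.08, limma adjusted p = 0.00161) and Rhbdf2, a regulator of the protease that sheds TNF, by 0.46 (SE 0.07, limma adjusted p = 0.00144). The sides of Shc4 nearly touched, at 12.36 TPM without MMA and 12.33 TPM with it, and overlapped after median-ratio scaling. Its FA libraries, at 13.57, 12.36 and 13.59 TPM, lay below control, at 18.99, 17 and 19.78 TPM. Of 25 chemokine, cytokine and NF-kB genes 9 were called lower and 3 higher (36% and 12% against 23.2% and 3.15% of all genes), with 5 lower and 3 higher after median-ratio scaling. Tnfsf18 was the only one that did not overlap. Relb, the partner of non-canonical NF-kB signalling, was called lower by 0.45 (SE 0.06, limma adjusted p = 0.00115) with overlapping libraries.

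Enzymes that write, read and erase histone marks were the list with the largest share of fallers that did not overlap. Methyl groups on lysine 4 of histone H3 mark promoters and enhancers and are placed there by the KMT2 proteins, while KDM6 enzymes take methyl groups off lysine 27. Of 27 chromatin writers and DNA methylation genes tested, 14 were called lower and none higher (51.9% lower against 23.2% of all genes). The libraries of 9 did not overlap, 33.3% against 5.68% of all genes. After median-ratio scaling 6 were called lower and 7 did not overlap, against 7.4% and 2.23% of all genes. Leaving out any 1 library left 12 to 14 called. Among the 9 were Kmt2a, Kmt2d, Kdm6b, Kdm5b, Arid1a, Crebbp, Tet3 and Dnmt3a. Kmt2a, Kmt2d, Kdm6b and Arid1a were among the 6 still called lower after median-ratio scaling, so not all the others of the 9 were.

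Kmt2c, which was outside that list, was among the 15 largest falls. It ranged from 11.1 to 14.1 TPM (median 12.2) without MMA and from 8.0 to 9.91 TPM (median 8.43) with it, a fall of 0.46 (SE 0.04, limma adjusted p = 0.000293). Kmt2d ranged from 9.68 to 11.6 TPM (median 10.9) and from 7.03 to 8.69 TPM (median 7.80), a fall of 0.41 (SE 0.05, limma adjusted p = 0.000923). Kmt2a fell by 0.36 (SE 0.05, limma adjusted p = 0.0013), and none of these 3 overlapped. The demethylase Kdm6b ranged from 23.4 to 30.1 TPM (median 26.0) and from 17.2 to 21.1 TPM (median 19.5), a fall of 0.44 (SE 0.06, limma adjusted p = 0.000931). Arid1a, a subunit of the SWI/SNF remodeller, fell by 0.34 (SE 0.05, limma adjusted p = 0.00096). Each of these 5 genes was called on both scalings.

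**Figure D2:**
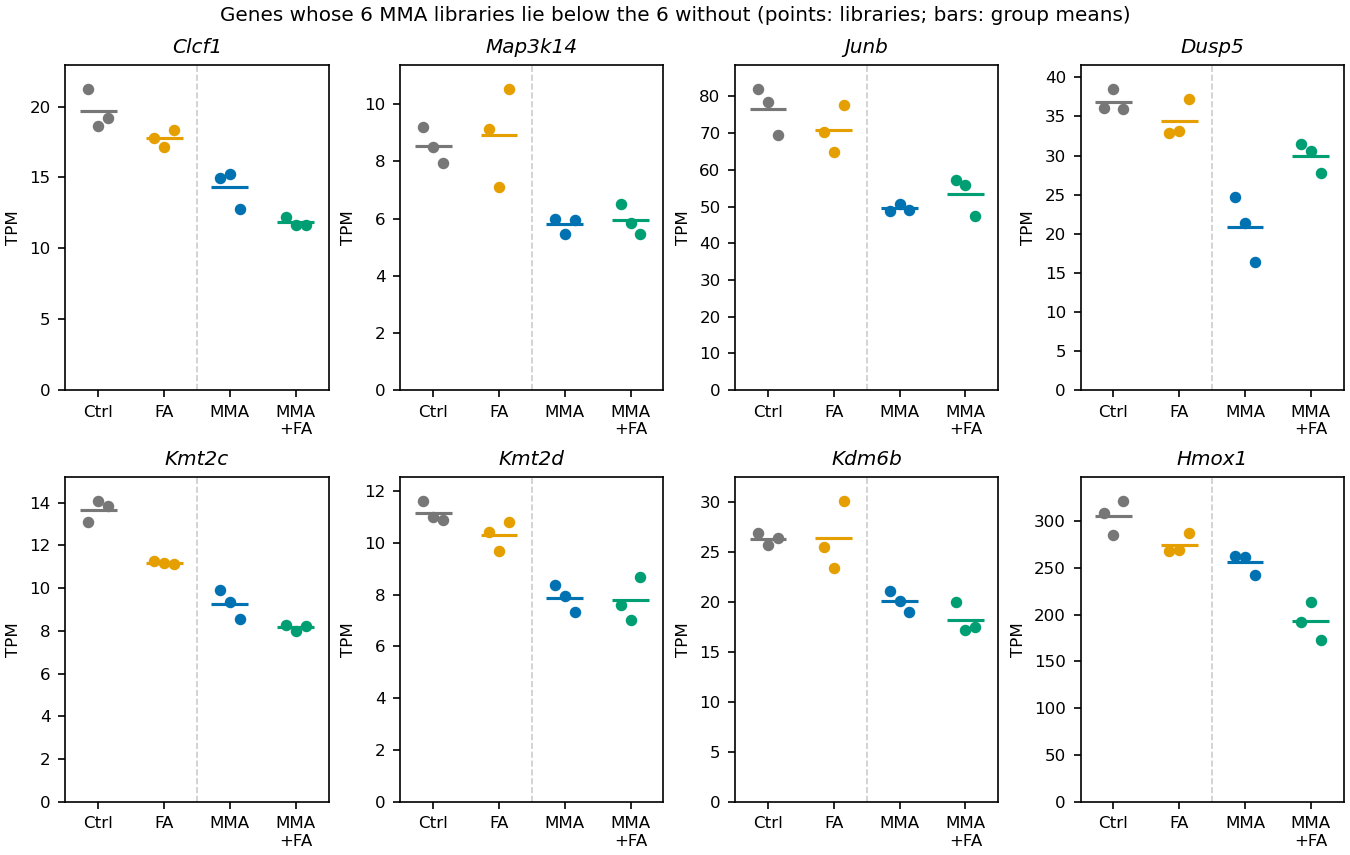
TPM in each of the 12 libraries for 8 genes whose libraries with MMA lay below all libraries without it. Points are libraries, horizontal bars are group means (n = 3), the dashed line separates libraries without and with MMA, and the axes start at 0. Dusp5 is lowest with MMA alone and Hmox1 is lowest with MMA+FA, while Map3k14 is alike in both.

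Amino acid metabolism gave the list with the largest share of lower calls among the 28. The transcription factor Atf4 induces aminoacyl-tRNA synthetases, amino acid transporters and asparagine synthetase when amino acids run short. Of 30 genes of this response 18 were called lower, 60% against 23.2% of all genes, and 1 higher, which was Atf4 itself (0.13, SE 0.02, limma adjusted p = 0.00246). Tested synthetases of the cytosol numbered 13, of which 10 were called lower and 6 did not overlap. These 6 were all the non-overlapping genes of the list, 20% against 5.68% of all genes, and after median-ratio scaling 1 of them, Mars1, still did not overlap. Leaving out FA replicate 2 or MMA+FA replicate 1 raised the 6 to 10 and 11 genes of the list. After median-ratio scaling 5 of the 30 were called lower, 16.7% against 7.4% of all genes.

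Wars1, which charges tRNA with tryptophan, ranged from 87.3 to 104 TPM (median 94.7) without MMA and from 72.5 to 86.3 TPM (median 80.4) with it, a fall of 0.24 (SE 0.04, limma adjusted p = 0.00169). Eprs1, for glutamate and proline, ranged from 559 to 616 TPM (median 573) and from 438 to 553 TPM (median 497), a fall of 0.21 (SE 0.04, limma adjusted p = 0.00181). Mars1, for methionine, fell by 0.20 (SE 0.03, limma adjusted p = 0.0021) and Iars1, for isoleucine, by 0.16 (SE 0.03, limma adjusted p = 0.00488). After median-ratio scaling Wars1, Eprs1 and Mars1 were still called (limma adjusted p = 0.0148, 0.0235 and 0.0257) and Iars1 was not (0.0814).

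Receptors and signal carriers of the TGF-beta, BMP and Wnt pathways, which guide growth and differentiation, followed. Of 34 genes 16 were called lower (47.1% against 23.2% of all genes) and 1, Bmp4, higher, and the lower count was 10 without control replicate 1. After median-ratio scaling 6 were called lower (17.6% against 7.4%). Bmpr2, the type II BMP receptor, ranged from 33.0 to 39.7 TPM (median 36.0) without MMA and from 28.1 to 32.5 TPM (median 29.98) with it, a fall of 0.26 (SE 0.04, limma adjusted p = 0.00104). Fzd7, a Wnt receptor, ranged from 41.6 to 50.4 TPM (median 45.9) and from 35.7 to 38.7 TPM (median 37.3), a fall of 0.29 (SE 0.05, limma adjusted p = 0.00177). Lrp6, its co-receptor, fell by 0.12 (SE 0.03, limma adjusted p = 0.0255), but after median-ratio scaling it differed by -0.05 (limma adjusted p = 0.364), and its call also went without control replicate 1, control replicate 3 or MMA replicate 2. Non-overlapping members of the list went from 3 to 6 without FA replicate 2 or MMA+FA replicate 1.

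Antioxidant genes under the transcription factor NRF2 were split. Of 32 genes 11 were called lower and 3 higher, 34.4% and 9.38% against 23.2% and 3.15% of all genes. After median-ratio scaling 5 were lower and 3 higher, 15.6% and 9.38% against 7.4% and 9.04%. Hmox1, heme oxygenase, ranged from 268 to 322 TPM (median 286) without MMA and from 173 to 263 TPM (median 229) with it, a fall of 0.38 (SE 0.06, limma adjusted p = 0.00161). MMA+FA libraries were the low ones, at 192, 214 and 173 TPM against 263, 262 and 243 TPM with MMA alone. Keap1, the repressor of NRF2, did not overlap and was called lower by 0.13 (SE 0.05, limma adjusted p = 0.049), but leaving out any of 10 of the 12 libraries ended that call, as did median-ratio scaling (limma adjusted p = 0.372). Duox2, an oxidase that makes hydrogen peroxide, ranged from 4.78 to 6.59 TPM (median 5.89) and from 3.49 to 4.15 TPM (median 3.77), a fall of 0.48 (SE 0.07, limma adjusted p = 0.00111).

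**Figure D3:**
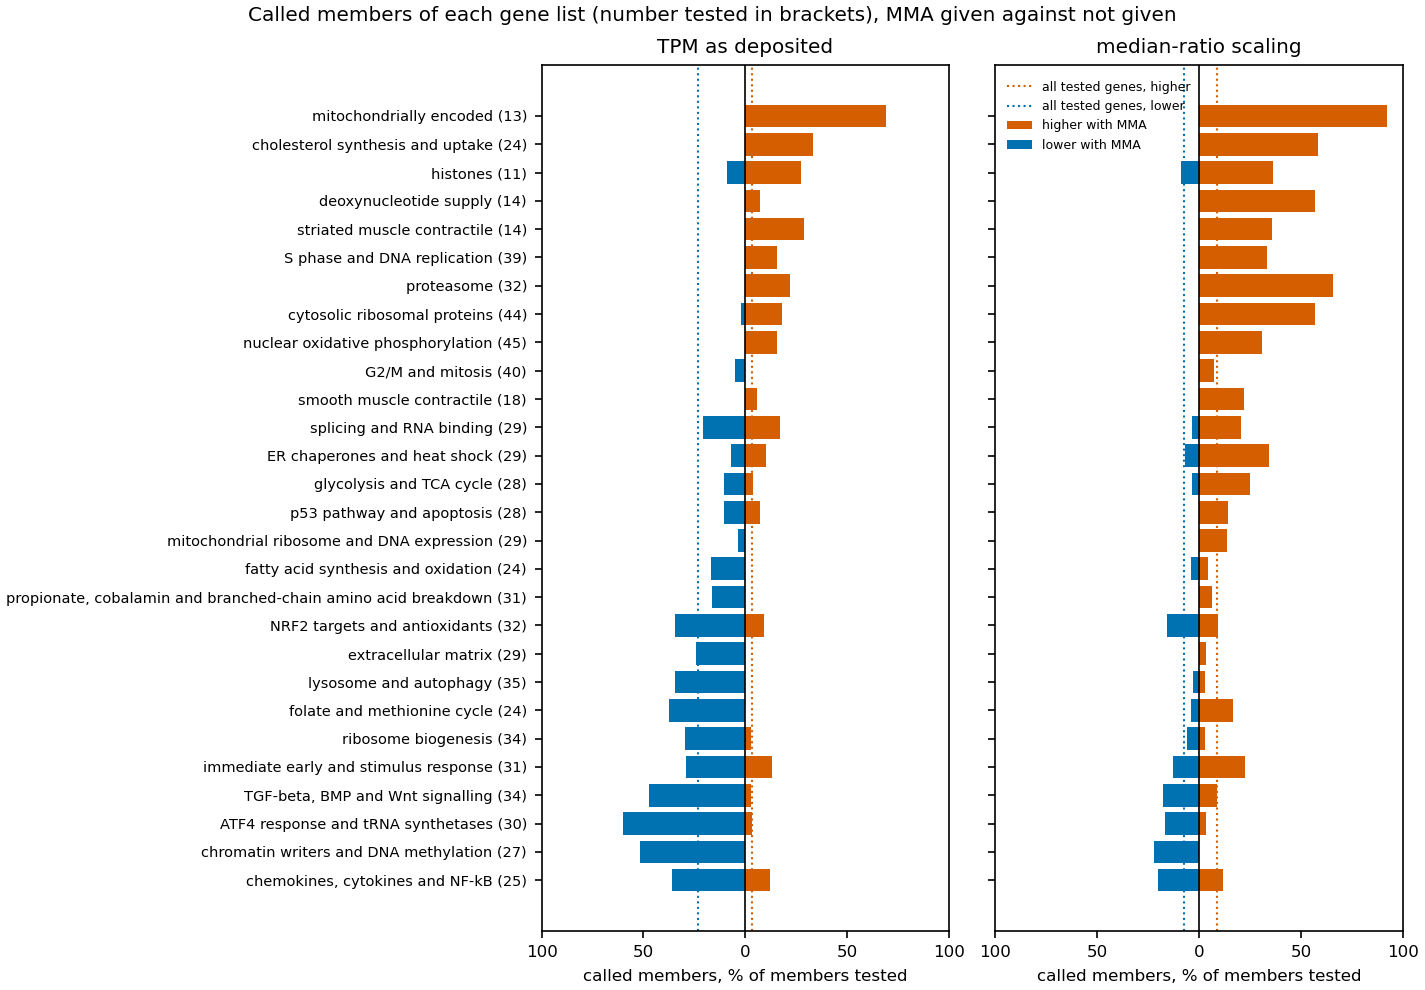
Share of the tested members of each of 28 gene lists that limma called higher (right of 0) or lower (left of 0) with MMA at an adjusted p under 0.05, for TPM as deposited and after median-ratio scaling. Dotted lines mark the shares over all 12263 genes tested, and lists are ordered by their median log2 difference. Chromatin writers have no higher calls in either panel, and mitochondrially encoded and cholesterol genes have no lower ones.

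The remaining large falls were of varied function. Mex3b, an RNA-binding protein, ranged from 16.1 to 19.3 TPM (median 18.7) without MMA and from 9.88 to 15.1 TPM (median 13.8) with it, a fall of 0.47 (SE 0.07, limma adjusted p = 0.00157). Prune2 fell by 0.45 (SE 0.05, limma adjusted p = 0.000462), from a range of 43.2 to 54.4 TPM to one of 32.5 to 38.2 TPM. Scaf4, a protein that guards against early transcript ends, fell by 0.44 (SE 0.05, limma adjusted p = 0.000462). Sertad3 fell by 0.45 (SE 0.08, limma adjusted p = 0.00232) and the zinc finger gene Zfp324 by 0.44 (SE 0.07, limma adjusted p = 0.00169). H4c14, a histone H4 gene, fell by 0.97 (SE 0.15, limma adjusted p = 0.00141), but several identifiers share its symbol, so reads may be split between near-identical copies. Matrix genes Fn1, encoding fibronectin, and Bgn, encoding biglycan, fell by 0.21 (SE 0.04, limma adjusted p = 0.00661) and 0.13 (SE 0.03, limma adjusted p = 0.0151), both without a call after median-ratio scaling (0.0556 and 0.309).

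Genes of MMA, cobalamin and folate handling moved little. Mmut ranged from 7.97 to 10.5 TPM (median 9.41) without MMA and from 7.24 to 9.53 TPM (median 8.77) with it, a difference of -0.13 (SE 0.07, limma adjusted p = 0.211). Mmachc, which processes incoming cobalamin, differed by -0.07 (SE 0.07, limma adjusted p = 0.442), and Mthfd2, a mitochondrial folate enzyme, by -0.07 (SE 0.04, limma adjusted p = 0.193). Tcn2, the cobalamin carrier, was called lower by 0.16 (SE 0.05, limma adjusted p = 0.0346), with overlapping libraries and with a call lost after median-ratio scaling (0.266) and in 9 of 12 single-library omissions.

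Mtr, methionine synthase, did not overlap, unlike Mmut, Mmachc, Mthfd2 and Tcn2. Its difference was -0.10 without FA (limma adjusted p = 0.129) and -0.24 with FA (limma adjusted p = 0.0122). Over both backgrounds Mtr ranged from 25.8 to 26.9 TPM (median 26.8) without MMA and from 21.4 to 25.3 TPM (median 23.7) with it. That was a fall of 0.17 (SE 0.04, limma adjusted p = 0.007), but after median-ratio scaling the difference was -0.10 (limma adjusted p = 0.0751). Bcat1, the cytosolic branched-chain aminotransferase, ranged from 355 to 381 TPM (median 373) and from 303 to 340 TPM (median 335), a fall of 0.16 (SE 0.03, limma adjusted p = 0.00285), likewise not called after median-ratio scaling (0.0761). In all, 9 of 24 folate and methionine cycle genes and 5 of 31 propionate, cobalamin and branched-chain amino acid genes were called lower and none higher. The first share, 37.5%, was above the 23.2% of all genes and the second, 16.1%, below it. After median-ratio scaling the folate and methionine list had 1 lower and 4 higher (4.17% and 16.7%). The propionate list then had 0 lower and 2 higher (0% and 6.45%), and the shares of all genes on that scale were 7.4% lower and 9.04% higher. Without control replicate 2 the 5 became 2, and without control replicate 3, MMA replicates 2 or 3, FA replicate 2 or MMA+FA replicates 2 or 3 they became 3.

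The MMA difference was then taken separately in cells without and with FA. MMA alone against control gave 472 genes called higher (3.85%) and 2029 lower (16.5%), and MMA+FA against FA gave 196 higher (1.6%) and 1092 lower (8.9%). These 2 comparisons share no libraries. Of the 53 higher genes, 32 were called without FA and 20 with FA, and of the 696 lower genes 491 and 336. The medians were 0.21 without FA and 0.20 with FA for the higher genes, and -0.25 and -0.21 for the lower ones. Since the rule asks all libraries of both backgrounds to lie on 1 side, the shared direction is set by the rule.

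A test of the difference between the backgrounds, the interaction of MMA and FA, called 295 genes (2.41%, with 2163 at an unadjusted p under 0.05). Among the 749 genes it called 4, namely Chka, Frmd4b, Arf1 and a long non-coding RNA without a symbol. Chka, choline kinase at the entry of phosphatidylcholine synthesis, gave 59.9, 58.8 and 59.4 TPM in control cells, 37.4, 37.6 and 33.4 TPM with MMA, 43.5, 43.7 and 42.3 TPM with FA and 38.3, 36.2 and 36.8 TPM with both. The fall with MMA was 0.70 without FA and 0.21 with FA (limma adjusted p of the interaction = 0.0112), and the FA libraries were already low. Frmd4b rose by 0.57 without FA, while with FA the difference was 0.16 (limma adjusted p = 0.122), and the interaction was called (limma adjusted p = 0.0394). Arf1, a GTPase of Golgi traffic, was higher by 0.39 without FA and by 0.13 with FA (interaction limma adjusted p = 0.0343), and since several identifiers share its symbol its reads may be split. Edn1 and Dusp5, with differences of 0.99 and 0.37, and of -0.81 and -0.19, did not pass that test (limma adjusted p = 0.0947 and 0.0596).

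**Figure D4:**
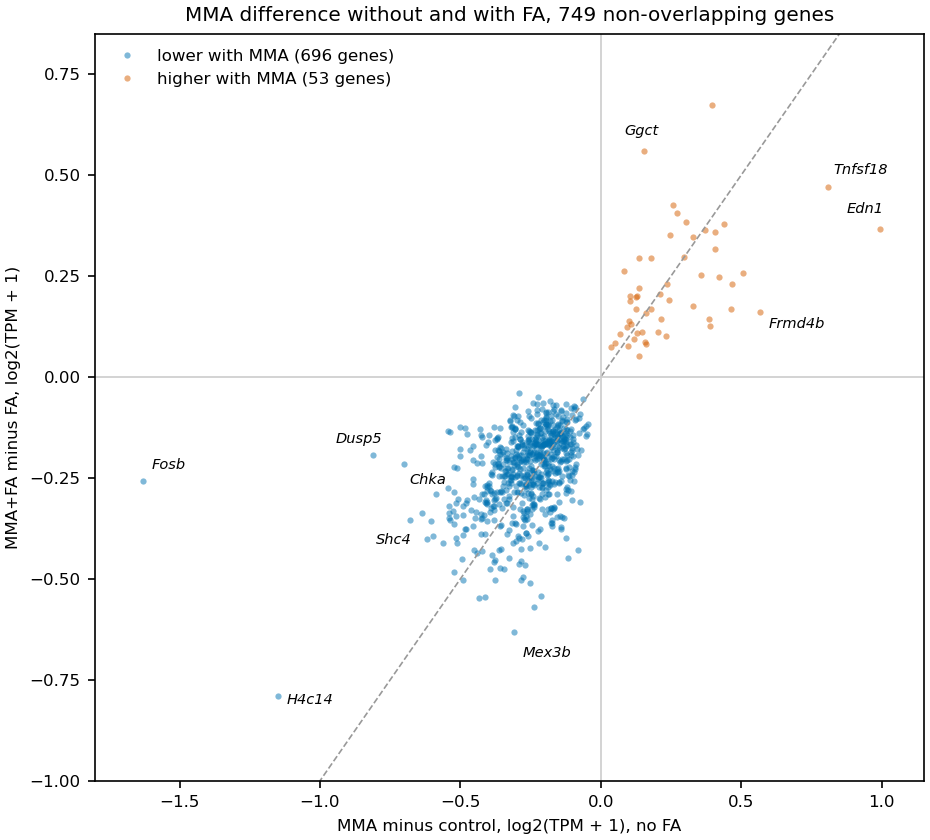
Difference on the log2(TPM + 1) scale with MMA without FA (x axis) and with FA (y axis) for the 749 non-overlapping genes. Points are genes, orange for the 53 higher and blue for the 696 lower, and the dashed line marks equal differences. Fosb, Dusp5 and Chka lie toward larger falls without FA, and Ggct and Mex3b toward larger differences with FA.

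Some called genes missed the rule although their 3 and 3 libraries stayed apart within both FA backgrounds. These were 113 of the 386 genes called higher and 847 of the 2840 called lower. Whether FA moved them was not tested. Prrx2, a homeobox factor of mesenchymal cells, had the largest fall of that kind, 0.75 (SE 0.06, limma adjusted p = 8.82e-05). Its values were 34.4, 35.7 and 37.9 TPM in control cells, 22.7, 22.9 and 20.5 TPM with MMA, 9.65, 11.7 and 9.85 TPM with FA and 5.04, 5.39 and 5.98 TPM with both, so FA and MMA libraries were each lower than control. Smad9, a BMP signal carrier, fell by 0.66 (SE 0.08, limma adjusted p = 0.000707) in the same pattern. Tnnt2, cardiac troponin T, rose by 0.55 (SE 0.08, limma adjusted p = 0.00132), with 15.02, 18.9 and 14.5 TPM in control cells, 22.7, 19.7 and 21.9 TPM with MMA, 43.8, 47.1 and 42.4 TPM with FA and 84.6, 67.5 and 68.7 TPM with both. At the edge of the rule itself, Nacc1 was the closest gene inside, with 37.28 TPM as its lowest value without MMA and 37.27 TPM as its highest with MMA. Setd1b was the closest outside, with 6.3 TPM for both. Nacc1 was called lower (limma adjusted p = 0.0156), a call that median-ratio scaling ended (limma adjusted p = 0.133).

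The genes of the rule also differed from others in length and abundance. Gene span, the distance from first to last base in the RefSeq annotation of GRCr8, was known for 674 of the 696 lower genes, 44 of the 53 higher genes and 11258 of all 12263. Its median was 44.6 kb for the lower genes, 13.97 kb for the higher genes and 23.4 kb for all. When all genes with a span were divided into 5 bins of equal size, from short to long, the share that was lower without overlap went from 2.31% and 4.09% through 5.37% and 7.55% to 10.6%. The 274 lower genes that also held after median-ratio scaling had a median span of 46.3 kb. Higher genes were more abundant, with a median of 70.1 TPM against 19.8 TPM for all genes and 17.4 TPM for the lower ones. Over the 47 of them that are nuclear genes it was 35.8 TPM. These shares are descriptions over genes, and their part in the lists above was not tested.

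**Figure D5:**
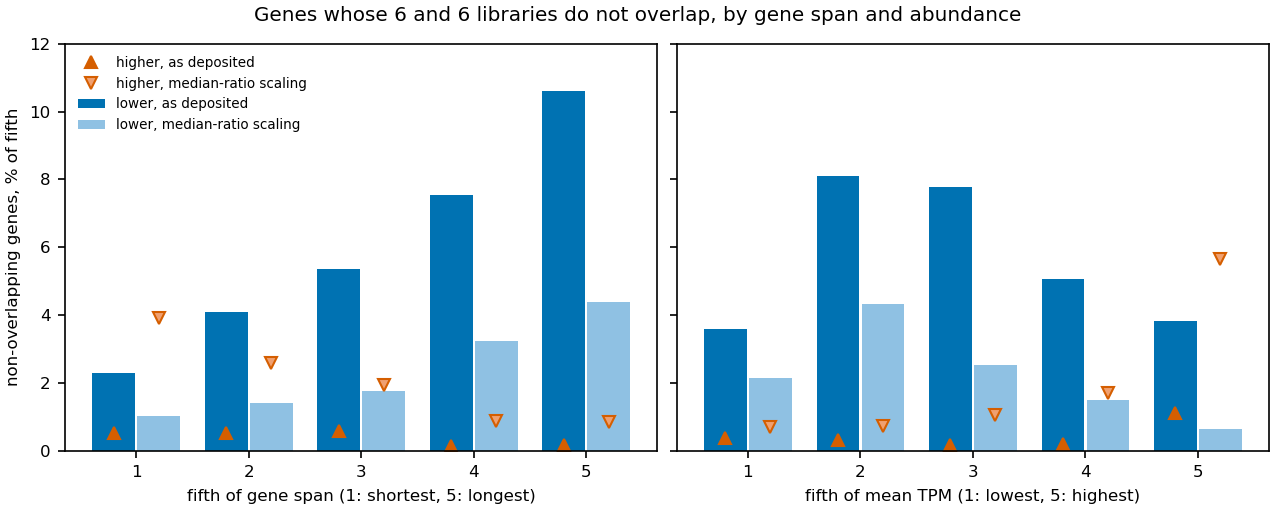
Share of genes in each of 5 equal bins of gene span (left, 0.148 kb to 2970 kb) and of mean TPM (right) whose 6 and 6 libraries did not overlap. Bars show lower genes and triangles higher genes, for TPM as deposited and after median-ratio scaling. The share of lower genes grows with span on both scalings, from 2.31% to 10.6% as deposited.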

How the data were processed

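Polyadenylated RNA from 12 H9c2 libraries was sequenced from stranded libraries, per the labels. The authors deposited a table of TPM per gene for 30562 genes. Per the submitters' processing notes, fastp, HISAT2 and the build mRatBN7.2 were used, with tool versions not given in the sources used here. RSEM appears in the name of the deposited table. TPM keeps no read depth, so no count model or counting interval was possible, and precision rests on the spread between libraries. From these values log2(TPM + 1) was computed for genes averaging 1 TPM or more and fitted in limma 3.58.1 (R 4.3.3) with terms for MMA and FA, a mean-variance trend and Benjamini-Hochberg adjustment over all 12263 genes tested. Adjusted p under 0.05 was the threshold, and fold changes on this scale understate the change of low genes. The interaction came from a fit of 4 group means. Median-ratio scaling, quantile normalization, other pseudocounts and filters, other variance settings, a replicate block and the omission of each library were alternatives. The fit was tested on simulated data.

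Named genes were drawn from the 15 largest differences in each direction among called protein-coding genes that did not overlap, had a symbol of their own and reached a mean of 5 TPM in the higher 6 libraries. To these were added up to 4 called non-overlapping members of each list in each direction with the smallest p, the 5 largest called genes in each direction that overlapped 6 and 6 but not within either FA background, the genes nearest the edge of the rule, and Mmut, Mmachc, Tcn2, Mtr and Mthfd2. The genes examined and the 28 gene and 6 marker lists were chosen with earlier results of these data known. Promoters and gene spans came from RefSeq tables for GRCr8. Other genes named in the text, among them list members that overlapped, Zfp36, Klf6 and the Egr genes, were chosen after their values were seen. Same-numbered libraries did not deviate together (18 pairs, r from -0.124 to 0.107). These correlations cannot tell whether such libraries shared a culture, day or batch, so no pairing was used in the main fit. A few named genes are not reported here.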

Additional observations from a re-analysis of the deposited data

Results flagged for a closer look

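Of the 81 named genes, 2 showed an MMA difference that itself differed between cells with and without FA. The same test called 295 of all 12263 genes tested (2.41%), so this count was near the share over all genes. For Chka the difference with FA exceeded that without FA by 0.488 on the log2(TPM + 1) scale (limma adjusted p = 0.0112), and for Frmd4b the value was -0.407 (limma adjusted p = 0.0394).

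A single library stood far from the other 5 of its side in 10 of 168 groups of 6 checked by Dixon's ratio, where chance gives about 1 in 20. MMA+FA replicate 3 was that library in 6 of the 10. It was low for Bcat1 at 302.6 TPM and for the heat shock factor Hsf1 at 35.45 TPM. It was high for Hmgcs1 at 36.4 TPM, Il18rap at 6.37 TPM, LOC102551819 at 12.42 TPM and the proteasome subunit Psma1 at 107.9 TPM. Of the others, FA replicate 2 was low for Mex3b at 16.12 TPM, MMA replicate 2 was low for Nacc1 at 32.24 TPM, MMA+FA replicate 1 was high for Tcn2 at 77.24 TPM and MMA replicate 1 was high for Uqcrfs1 at 142 TPM.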

How the results depend on the processing

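The as-deposited counts were 3226 genes called (386 higher, 2840 lower), 53 and 696 non-overlapping, and 295 for the interaction. Median-ratio scaling gave 2016 called (1109 higher, 907 lower) and 242 and 274 non-overlapping. Quantile normalization gave 1529 (746 and 783), with 163 and 249 non-overlapping. Without an FA term 1737 were called (173 and 1564). Against a minimum fold of 1.2, limma's treat called 2, with 0 higher and 2 lower, where 4796 genes had an unadjusted p under 0.05 in the test against no difference. The interaction called 181 without the abundance filter and 1810 with array weights.

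Leaving out 1 library gave 2362 to 3306 called, 260 to 414 higher and 2102 to 2892 lower. Non-overlapping genes ranged from 58 to 105 higher and from 722 to 1173 lower, since fewer libraries must stay apart. Without FA replicate 2 they were 105 and 1173. Without MMA replicate 2, FA replicate 3 and MMA+FA replicate 2 the higher ones were 82, 81 and 84. Interaction calls ranged from 85 to 496 and moved by over 1.5 times with every library but FA replicate 3 (287) and MMA+FA replicate 3 (281), so that count is not stable. The mitochondrial share differed by 0.991 to 1.324 percentage points. With the replicate block 2881 genes were called (339 higher, 2542 lower) and 214 for the interaction, and 2 of 12 libraries correlated best with their own number. No called gene among the 81 named turned its direction, while Mmachc became 0.034 after quantile normalization and Mthfd2 0.005 after median-ratio scaling, neither being called in any case. Median-ratio scaling ended 15 calls. Depth is unknown.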

Other observations

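Some gene families are given here that were picked after their values were seen, so they carry no test of their own. Over all genes tested, 5.68% were lower without overlap. Lower calls made up 23.2% as deposited and 7.4% after median-ratio scaling. All 5 tested Kmt2 genes were lower without overlap and called on both scalings, Kmt2a and Kmt2d of the chromatin list among them, and also Kmt2b at -0.35 (SE 0.05, limma adjusted p = 0.0014) and Kmt2e at -0.23 (SE 0.04, limma adjusted p = 0.00167). The same held for all 4 tested Baz genes, which encode bromodomain subunits of chromatin remodellers, with Baz1a at -0.31, Baz1b at -0.24, Baz2a at -0.32 and Baz2b at -0.32. Of 7 Socs genes, the feedback inhibitors of cytokine receptors, 3 were lower without overlap, namely Cish (-0.50), Socs5 (-0.24) and Socs7 (-0.34), and the other 4 were not called. The Ncoa family was mixed too. Of its 8 tested identifiers 5 were called lower, 4 did not overlap and 3 were called lower on both scalings. The Srf cofactors Mrtfa (-0.30, limma adjusted p = 0.00179) and Mrtfb (-0.17, limma adjusted p = 0.0214) were lower without overlap, and after median-ratio scaling Mrtfa was called (0.00909) and Mrtfb was not (0.135).

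A kinase and a phosphatase of vitamin B6 moved apart. Pdxp, the phosphatase that opposes Pdxk, was lower by 0.48 (SE 0.10, limma adjusted p = 0.00604) without overlap, while Pdxk was higher. Pdxp was also chosen after its values were seen.

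Among other fixed lists, 12 of 35 lysosome and autophagy genes were called lower as deposited (34.3% against 23.2% of all genes) and 1 after median-ratio scaling (2.86% against 7.4%), and without control replicate 1 the 12 became 2. Of 39 replication genes 6 were called higher and none lower (15.4% higher against 3.15%), with 13 higher after median-ratio scaling (33.3% against 9.04%), and the 6 became 3 without control replicate 1, control replicate 2, MMA replicate 1 or MMA+FA replicate 3. CCAAT stood in 34.7% of the promoters of lower non-overlapping genes and 38.8% of all tested promoters, on either strand of the same 300-base window, and CACGTG in 10.7% and 9.68%.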
